A study of Saccharomyces cerevisiae with 4 samples.

Results

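The genes described here encode the proteins of the small (40S) ribosomal subunit of Saccharomyces cerevisiae, 56 RPS genes and ASC1, which together are 57 of the 6692 open reading frames counted. They were taken by their systematic names. Of the 57 genes, 48 form 24 paralogue pairs (a copy A and a copy B that encode the same or nearly the same protein) and 9 are single copy. A gene was called intron-containing where at least 30 bases lay between its coding exons, which held for 37 genes and not for 20. In 17 pairs both copies had an intron, in 6 pairs neither did, and in RPS22 copy B alone did. The RNA was sequenced from nuclear messenger ribonucleoprotein particles (mRNPs, messenger RNAs with their bound proteins) and from total lysates. The 2 eluates came from an affinity purification in which the ATPase Sub2 and then the THO complex subunit Hpr1 served as bait, with release by biotin. The 2 lysates were total RNA of the material before the first affinity step. All 4 libraries came from the same haploid BY4741 laboratory strain, with SUB2 tagged at its locus as sub2-FLAG-3C-ProtA::kanMX4 and HPR1 as hpr1-TS::hphNT1, grown in YPD, so that the lysates carry both tags as well. No purification from an untagged strain was analysed here, and no further treatment separated the groups.

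Ribosomal protein genes are among the most strongly transcribed genes of growing yeast, and a large share of the introns of this organism lies in them. Their messenger RNAs are packaged in the nucleus by the TREX machinery, of which THO and Sub2 are parts, exported, and translated in the cytoplasm, where most of the messenger RNA of a cell resides. The proteins return to the nucleolus and join the nascent small subunit, whose head, platform and body carry the decoding centre and the path of the messenger RNA. Many yeast ribosomal proteins are encoded by paired genes left by an ancient genome duplication, and the copies often differ in expression.

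The eluates held 22454265 and 29903666 counts and the lysates 14793216 and 11448755. Levels are given as CPM, the count scaled to a library size adjusted by the trimmed mean of M values (TMM), and as CPM per kb of coding length where genes are compared with each other. The strain's deleted markers LEU2, URA3 and MET17 had no counts, and STE2, the pheromone receptor of a cells, had 5979 to 8804 counts per library where STE3, the receptor of alpha cells, had 12 to 29. Mitochondrial reading frames took 0.00717% and 0.00685% of the counts in eluate RNA, against 1.31% and 1.33% in lysate RNA, a difference in RNA of another compartment that moves with every comparison below and whose part in them was not tested. All 57 genes passed the filter on low counts, with 74 to 9369 counts per eluate and 1458 to 57656 counts per lysate. Paralogues share long stretches of sequence, and the counting of reads that match both copies, not given in the sources used here, leaves the division of counts between copies uncertain. RPS27A and RPS2 also overlap a reading frame on the opposite strand.

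The first comparison asks whether 40S protein transcripts are recovered with Sub2- and Hpr1-bound particles in the proportion they have in the lysate. They were not: all 57 genes fell in the eluates, where 44.8% of the 6191 reading frames tested were called lower, and their median log2 fold change, eluate over lysate, was -4.55 where the median of all reading frames was -0.01. Fold changes are from edgeR's quasi-likelihood test with Benjamini-Hochberg adjustment over all reading frames, with 2 libraries per group. A ± beside a fold change is an approximate standard error. It is the size of the fold change divided by the square root of the test's F statistic. The lowest value was -7.11 (RPS25A), and the middle 50% lay between -5.28 and -3.47, with standard errors between 0.10 and 0.21, and adjusted p between 1.21e-14 and 7.9e-06. Both eluates lay below both lysates for 57 of 57 genes, a pattern that 47.5% of all reading frames had. Tested against a 2-fold change (edgeR's glmTreat), 56 of 57 passed as lower beside 28.9% of all reading frames. A decrease of more than 16-fold was fitted for 37 genes (4.33% of all reading frames), and one of more than 64-fold for 8 genes (0.759%). None was called higher by edgeR, DESeq2 or limma-voom, where edgeR at an adjusted p under 0.05 called 44.2% of all reading frames higher. At an unadjusted p under 0.05 in edgeR, 0 of the 57 genes were higher. Replicates are separate samples by the labels and biological replicates by the study's methods. A fold change here compares the purified fraction with total RNA, so a decrease means a lower share of the eluate than of the lysate. It does not measure a change in the level per cell.

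The same loss shows in the pooled counts. The 57 genes took 0.340% (exact 95% binomial interval 0.338 to 0.342) and 0.363% (0.361 to 0.365) of all counts in the eluates, against 7.98% (7.97 to 8.0) and 7.51% (7.49 to 7.52) in the lysates, a share 22 times higher in the lysates. These intervals cover counting error only. The shares did not overlap, but an exact two-sided permutation test over 2 against 2 libraries cannot give less than the p of 0.333 that it gave. Proteins of the large (60S) subunit and its stalk (81 genes) took 0.509% and 0.546% of the counts in eluate RNA, against 8.86% and 8.37% in lysate RNA, 16.3 times more in the lysates.

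**Figure D1:**
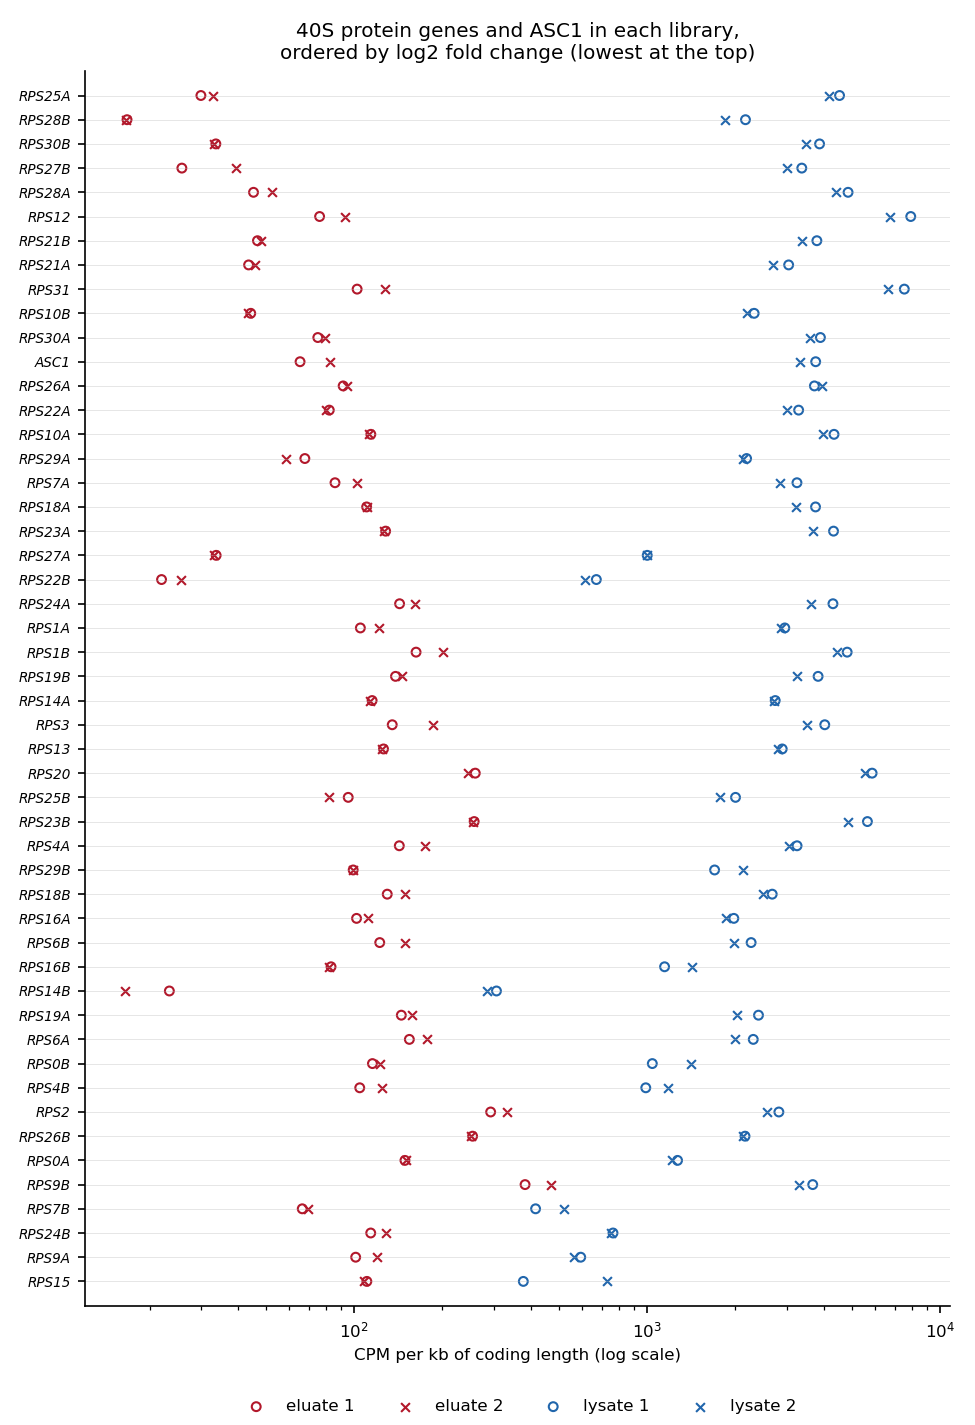
CPM per kb of coding length of 50 small-subunit protein genes in every library, on a log scale and ordered by fold change, with eluates and lysates in separate colours. Each gene's eluate points lie below its lysate points, with the widest gap at RPS25A.

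The genes with the strongest depletion encode short proteins. RPS25A (YGR027C), whose product sits in the head near the exit site for transfer RNA, had 9.79 and 10.7 CPM in the eluates, against 1483 and 1368 CPM in the lysates, a log2 fold change of -7.11 ± 0.14 (adjusted p = 1.34e-14). The gene has no intron and lies on chromosome VII, 534132 to 534458 in sacCer3. RPS28B (YLR264W), a copy of the gene for the eS28 protein of the head, had 3.42 and 3.4 CPM in the eluates, against 442 and 377 CPM in the lysates (-6.91 ± 0.14), and RPS28A (YOR167C) had 9.24 and 10.7 CPM in the eluates, against 989 and 902 CPM in the lysates (-6.56 ± 0.14). Both copies of RPS28 were thus among the 5 lowest values of the 57. RPS30B (YOR182C), encoding a small basic protein near the decoding site, had 6.47 and 6.39 CPM in the eluates, against 744 and 666 CPM in the lysates (-6.78 ± 0.14). RPS27B (YHR021C), encoding a zinc-binding protein of the platform side, had 6.42 and 9.86 CPM in the eluates, against 839 and 749.8 CPM in the lysates (-6.59 ± 0.18). Its eluates differed from each other by 0.62 on the log2 scale, the widest gap between eluates of any of the 57 genes, yet stayed far below its lysates. Among all 5774 nuclear protein-coding genes tested, 23 of the 100 lowest fold changes belonged to 40S protein genes, 40.4% of the 57, and 32 to 60S and stalk protein genes.

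At the other end, some genes fell much less. RPS15, RPS9A, RPS24B and RPS7B were among the 5 smallest decreases. RPS15 (YOL040C), an essential head protein whose C-terminal tail reaches towards the decoding centre, had 47.3 and 46.3 CPM in the eluates, against 162 and 313 CPM in the lysates (-2.34 ± 0.21). Its lysates differed by 0.95 on the log2 scale, the widest gap between replicates among the 57 genes, and the fold change was -2.74 without lysate replicate 1 and -1.79 without lysate replicate 2. RPS9A (YPL081W), whose product is a primary binder of the 18S ribosomal RNA, had 60 and 70.8 CPM in the eluates, against 352 and 334 CPM in the lysates (-2.39 ± 0.11). The other two are copies of strongly divided pairs and are described with their partners.

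Levels per kb of coding length spanned a 27.1-fold range in the eluates and a 27.9-fold range in the lysates, but the order of the genes was hardly shared (Spearman's rho 0.11 across the 57 genes, a description, since genes are not independent replicates). The 5 highest lysate levels were those of RPS12 (7338 CPM per kb), RPS31 (7097), RPS20 (5689), RPS23B (5239) and RPS28A (4636), and RPS14B (295) was among the lowest. In the eluates RPS9B (426) and RPS2 (312) were among the highest and RPS28B (16.7) and RPS14B (19.9) lowest. RPS23B (YPR132W), which encodes the protein at the decoding centre that carries a hydroxylated proline, had 112 and 112 CPM in the eluates, against 2473 and 2116 CPM in the lysates (-4.36 ± 0.14). Genes with more lysate RNA per kb tended to have lower fold changes (rho -0.62 across 57 genes), a relation in which the lysate values enter both sides.

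The single-copy genes were spread over the range. RPS12 (YOR369C), a protein of the beak of the head, had 32.9 and 40 CPM in the eluates, against 3428 and 2912 CPM in the lysates (-6.44 ± 0.17), and RPS31 (YLR167W), whose product is made as a fusion with ubiquitin, had 46.9 and 58.6 CPM in the eluates, against 3463 and 3052 CPM in the lysates (-5.95 ± 0.17). ASC1 (YMR116C), the yeast RACK1 scaffold on the back of the head, had 62.7 and 79.6 CPM in the eluates, against 3608 and 3189 CPM in the lysates (-5.58 ± 0.17). These 3 genes fell by more than the median of the 57. RPS3 (YNL178W), the entry-channel protein with a role in ribosome quality control, had 97.4 and 134 CPM in the eluates, against 2918 and 2529 CPM in the lysates (-4.55 ± 0.17), a decrease at that median. RPS20 (YHL015W), a neighbour of RPS3 in the head, had 94.7 and 89.8 CPM in the eluates, against 2144 and 2021 CPM in the lysates (-4.50 ± 0.13). In the body, RPS2 (YGL123W), at the entrance of the messenger RNA channel, had 223 and 254 CPM in the eluates, against 2153 and 1954 CPM in the lysates (-3.10 ± 0.13), and RPS13 (YDR064W), a platform protein, had 57.4 and 56.7 CPM in the eluates, against 1318 and 1273 CPM in the lysates (-4.50 ± 0.12). Over all 57 genes, the 23 for head proteins had a median of -4.98 and the 34 for body and platform proteins -4.33, with median coding lengths of 429 and 463.5 bases. The single-copy genes had a median of -4.50 and the genes in pairs -4.61.

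The second comparison sets the copies of each pair against each other, using the difference between their fitted log2 fold changes (copy A minus copy B). The 95% interval of this difference left out 0 in 18 of 24 pairs (75%), where it did so for 88.4% of all pairs of reading frames tested and for 28 of 35 pairs of 60S protein genes (80.0%). The share of divided 40S pairs was thus not above that background. Copy A was the more depleted one in 13 of the 18 pairs and copy B in 5. The median size of the difference was 0.72 in 40S pairs and 1.05 in 60S pairs, and 9 of 24 against 18 of 35 exceeded 1, where 73.7% of all pairs of reading frames did. The ratio of copy A to copy B within a library, which does not depend on library scaling, had eluates and lysates that did not overlap in 22 of 24 pairs (91.7%, against 93.8% of all pairs of reading frames and 91.4% of 60S pairs). The exceptions were RPS1 and RPS16. An exact permutation test over the libraries cannot go below p = 0.333 for any of these ratios. Across the 24 pairs, the fold change of copy A and that of copy B had a Spearman's rho of 0.63, a description in which copies share sequence and possibly reads.

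**Figure D2:**
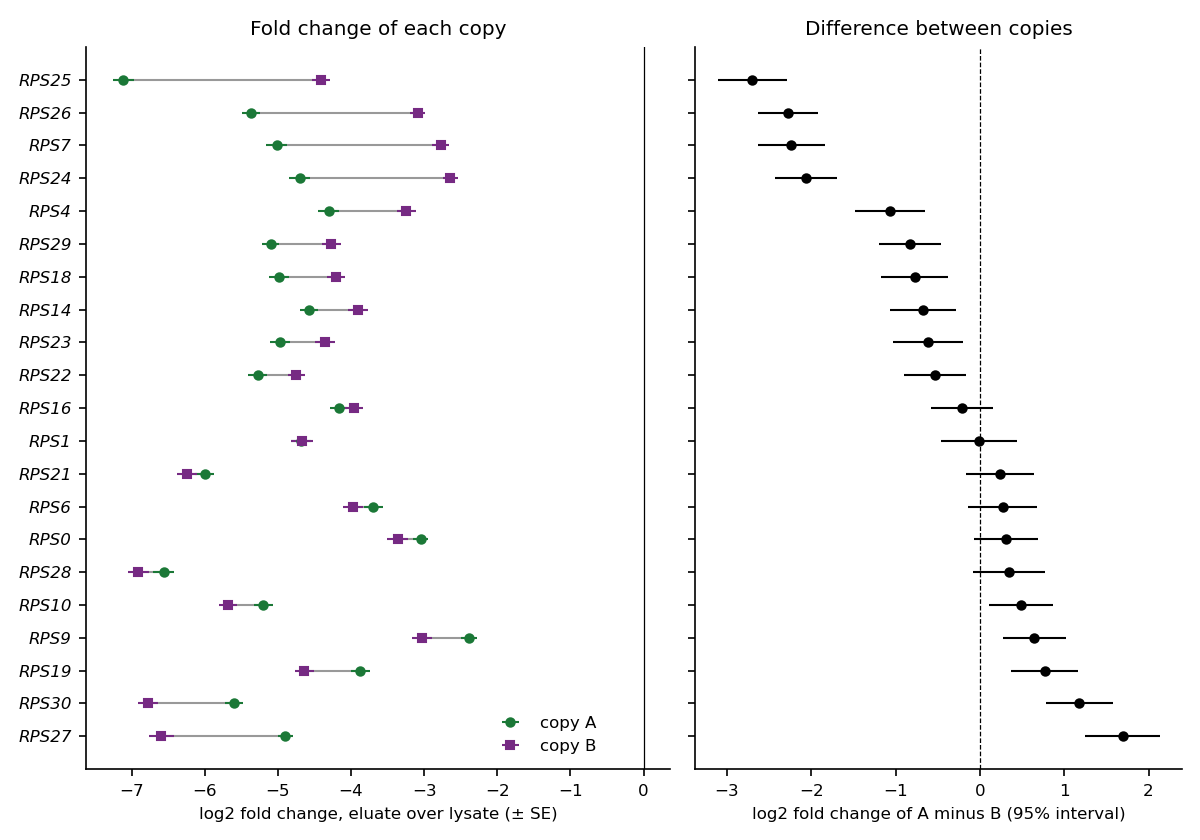
Left, log2 fold change (eluate over lysate) of copy A and copy B of 21 pairs, with approximate standard errors. Right, the difference A minus B with its 95% interval, which runs from -2.70 at RPS25 to 1.69 at RPS27 and leaves out 0 in 15 of these pairs.

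The 5 most divided pairs all had the more depleted copy in A. In RPS25 the difference was -2.70 (95% interval -3.11 to -2.29). RPS25A had the values given above, whereas RPS25B (YLR333C) had 31.2 and 26.9 CPM in the eluates, against 655 and 579 CPM in the lysates (-4.41 ± 0.12). The ratio of copy A to copy B was 0.315 and 0.4 in eluate RNA, against 2.27 and 2.36 in lysate RNA, so that the copy with more RNA was B in both eluates and A in both lysates. RPS26, whose zinc-binding product contacts the messenger RNA at the exit channel, differed by -2.28 (95% interval -2.63 to -1.92). RPS26A (YGL189C) had 33 and 33.9 CPM in the eluates, against 1339.6 and 1421 CPM in the lysates (-5.37 ± 0.13), and RPS26B (YER131W) had 91.2 and 90 CPM in the eluates, against 776 and 766 CPM in the lysates (-3.09 ± 0.11). Here, too, the copies exchanged rank, with A-to-B ratios of 0.362 and 0.377 in eluate RNA, against 1.73 and 1.86 in lysate RNA. Neither copy of RPS25 or RPS26 has an intron.

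RPS7 and RPS24 have introns in both copies. In RPS7, a body protein that is a target of ubiquitination, the difference was -2.24 (95% interval -2.63 to -1.84). RPS7A (YOR096W) had 49.2 and 58.5 CPM in the eluates, against 1859 and 1625 CPM in the lysates (-5.01 ± 0.14), and RPS7B (YNL096C) had 38.1 and 40 CPM in the eluates, against 238 and 297 CPM in the lysates (-2.78 ± 0.12). Copy A outweighed copy B in every library, by 1.29 and 1.46 times in the eluates and by 7.8 and 5.47 times in the lysates. In RPS24, a body protein, the difference was -2.06 (95% interval -2.43 to -1.69). RPS24A (YER074W) had 58.2 and 65.9 CPM in the eluates, against 1756 and 1481 CPM in the lysates (-4.70 ± 0.14), and RPS24B (YIL069C) had 46.4 and 52.5 CPM in the eluates, against 312 and 306 CPM in the lysates (-2.64 ± 0.10). The A-to-B ratio of RPS24 was 1.25 and 1.25 in eluate RNA, against 5.63 and 4.84 in lysate RNA.

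**Figure D3:**
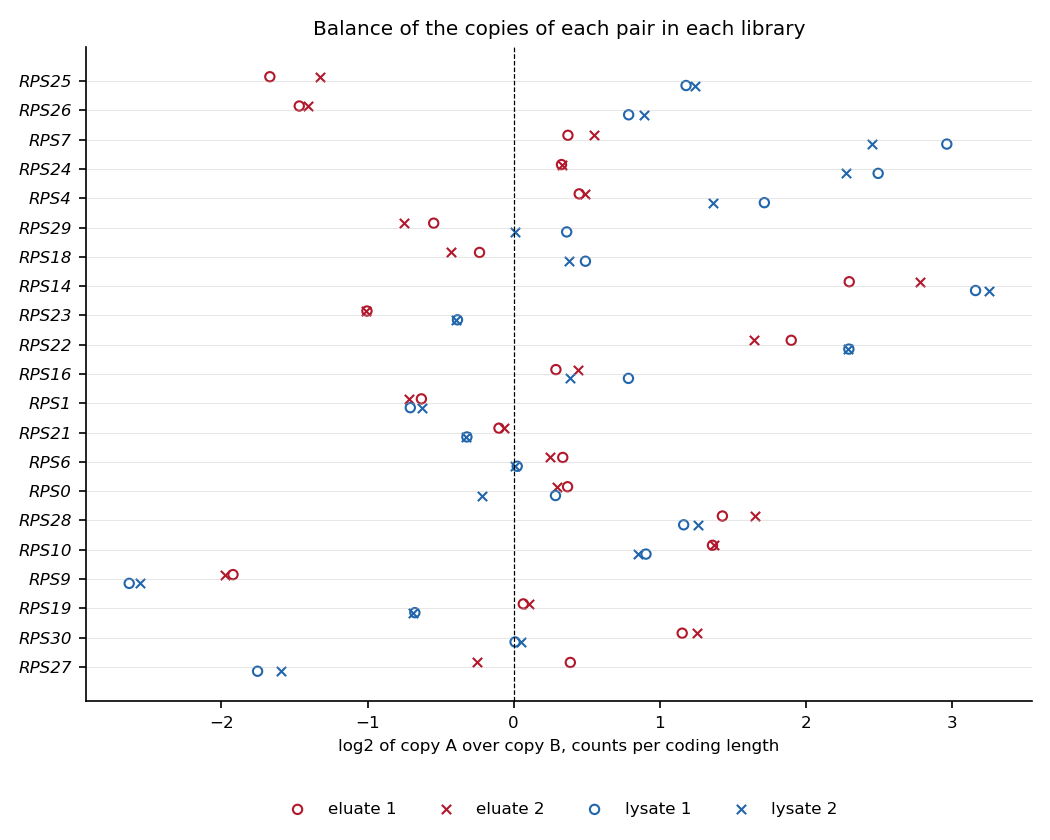
Log2 ratio of copy A to copy B within each library for 21 pairs, from counts per coding length, eluates and lysates in separate colours. Values above 0 mean more of copy A. The eluate and lysate points do not overlap in 19 of these pairs, the exceptions being RPS1 and RPS16.

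In 5 of the 18 pairs whose interval left out 0, copy B was the more depleted copy. RPS27 had the largest of these differences, 1.69 (95% interval 1.25 to 2.13), with an A-to-B ratio of 1.31 and 0.841 in eluate RNA, against 0.297 and 0.332 in lysate RNA. Its eluates straddled 1, while copy B was clearly the more abundant copy in both lysates. RPS30 differed by 1.18 (95% interval 0.79 to 1.57), and its copies were near equal in the lysates, with ratios of 1.01 and 1.04, whereas copy A was 2.22 and 2.39 times copy B in the eluates. RPS19, RPS9 and RPS10 had smaller differences of 0.77, 0.64 and 0.49. On the other side, RPS4 (-1.06), RPS29 (-0.83), RPS18 (-0.77), RPS14 (-0.67) and RPS23 (-0.62) had a more depleted copy A with an interval that left out 0. The mean log2 ratio of the copies had opposite signs in eluates and lysates in 7 pairs, among them RPS18, RPS19, RPS25, RPS26, RPS27 and RPS29. Some of these ratios lay near equality. The A-to-B ratio of RPS29 was 1.29 and 1.004 in the lysates, and that of RPS19 was 1.05 and 1.08 in the eluates. The copy with more RNA in the lysates was the more depleted one in 17 of 24 pairs, and in 28 of 35 pairs of 60S genes, a count in which the lysate values enter both sides.

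In the remaining 6 pairs, RPS16, RPS1, RPS21, RPS6, RPS0 and RPS28, the interval of the difference included 0, which bounds the difference without showing the copies to be alike. RPS1 encodes a protein of the platform near the exit of the messenger RNA channel, and its copies had the smallest difference, -0.01 (95% interval -0.46 to 0.44). RPS1A (YLR441C) had 80.6 and 93.6 CPM in the eluates, against 2264 and 2206 CPM in the lysates (-4.68 ± 0.14), and RPS1B (YML063W) had 125 and 154 CPM in the eluates, against 3697 and 3405 CPM in the lysates (-4.67 ± 0.16). The A-to-B ratio was 0.646 and 0.608 in eluate RNA, against 0.612 and 0.648 in lysate RNA, with overlapping ranges. RPS16, a head protein whose tail reaches the peptidyl site, differed by -0.21 (95% interval -0.58 to 0.16). RPS16A (YMR143W) had 44 and 48.2 CPM in the eluates, against 853 and 803 CPM in the lysates (-4.17 ± 0.12), and RPS16B (YDL083C) had 36 and 35.5 CPM in the eluates, against 495 and 615 CPM in the lysates (-3.96 ± 0.13). One lysate ratio of RPS16, 1.31, lay between the eluate ratios of 1.22 and 1.36. The RPS16 difference was -0.02 without lysate replicate 1 and -0.42 without lysate replicate 2. Without eluate replicate 1 it was -0.13, and without eluate replicate 2 it was -0.29. RPS21 encodes a small protein of the body, and its copies differed by 0.24 (95% interval -0.16 to 0.64). RPS21A (YKR057W) had 11.5 and 12.1 CPM in the eluates, against 802 and 709 CPM in the lysates (-6.0 ± 0.13), and RPS21B (YJL136C) had 12.3 and 12.6 CPM in the eluates, against 1002 and 890.0 CPM in the lysates (-6.24 ± 0.13). The RPS21 ratios did not overlap, at 0.933 and 0.957 in eluate RNA, against 0.801 and 0.797 in lysate RNA.

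The third comparison asks whether 40S genes with an intron behave differently from those without. Counts are over coding exons, so they do not separate spliced from unspliced RNA, and introns outside the coding sequence were not seen. All 37 intron-containing and all 20 intron-free genes fell, with medians of -4.50 and -4.61, a difference of 0.11 that ranged from 0.02 to 0.30 when single libraries were left out and is a description over genes, not a test. Intron-containing genes took 0.196% and 0.206% of all counts in eluate RNA, against 4.49% and 4.19% in lysate RNA (21.5 times more in the lysates), and intron-free genes 0.144% and 0.157%, against 3.50% and 3.32% (22.7 times). Of the 57 genes' own counts, intron-containing genes held 57.7% and 56.8% in eluate RNA, against 56.2% and 55.7% in lysate RNA (exact permutation p = 0.333, the smallest possible). In 60S protein genes the medians were -4.46 with an intron (53 genes) and -3.81 without (28 genes, of which 3 did not pass the test). Among other nuclear protein-coding genes they were further apart, -1.87 with an intron (168 genes, 119 lower and 39 higher) and 0.08 without (5468 genes). Median coding lengths with and without an intron were 435 and 411 bases in 40S genes and 411 and 550.5 in 60S genes. They were 735 and 1269 bases in other nuclear genes. The part of length in these gaps was not tested. Intron length, which spanned 256 to 551 bases with a median of 408, had a Spearman's rho of -0.03 with the fold change across the 37 genes. The number of coding bases before the intron, 3 to 537 with a median of 21, had a rho of 0.12. In the 17 pairs with an intron in both copies, the copy with the longer intron was the less depleted one in 9. The interval between copies left out 0 in 13 of these 17 pairs and in 4 of the 6 pairs without introns. It did so in 75% of all 24 pairs, 80.0% of 60S pairs and 88.4% of all pairs of reading frames. Neither count was tested against these shares.

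RPS22 allows the comparison within a pair, since copy B has an intron of 483 bases and copy A has none. RPS22A (YJL190C), encoding a protein of the body that contacts the 18S ribosomal RNA, had 32.3 and 31.5 CPM in the eluates, against 1292 and 1182 CPM in the lysates (-5.28 ± 0.13). RPS22B (YLR367W) had 8.64 and 10.1 CPM in the eluates, against 263 and 242 CPM in the lysates (-4.75 ± 0.12). The difference between the copies was -0.53 (95% interval -0.90 to -0.16), that is, the copy with the intron was the less depleted one. RPS22B made up 21.1% (exact 95% binomial interval 18.5 to 23.9) and 24.2% (21.7 to 26.8) of the pair's counts in the eluates, against 16.9% (16.5 to 17.4) and 17.0% (16.4 to 17.5) in the lysates. The eluate shares were above both lysate shares (exact permutation p = 0.333), but without eluate replicate 2 the difference was -0.39 and its interval included 0. One pair does not separate the intron from the other differences between the copies.

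**Figure D4:**
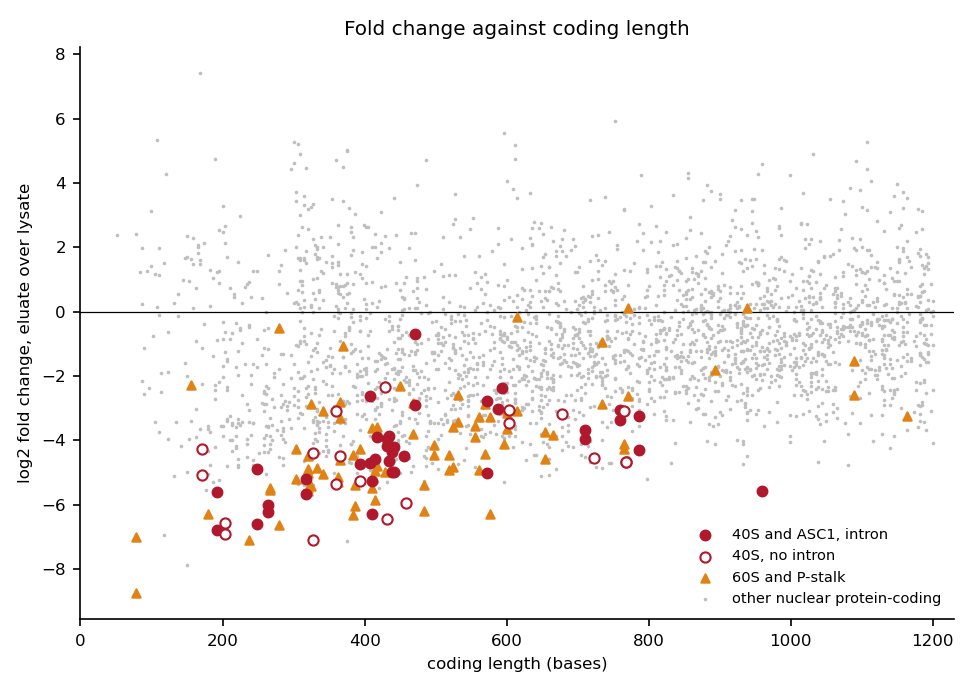
Log2 fold change (eluate over lysate) against coding length in bases for 40S protein genes with and without an intron, 60S and stalk protein genes and other nuclear protein-coding genes of up to 1200 bases. The median of genes of up to 300 bases was -6.12 in all 40S genes, -6.30 in 60S and stalk genes and -2.06 in other genes, with single genes spread around these values.

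The fold changes of these genes went with their coding length. Across the 57 genes, which span 171 to 960 bases, Spearman's rho was 0.54 (0.62 in the 37 with an intron and 0.34 in the 20 without), beside 0.53 across 5636 other nuclear protein-coding genes. The 10 genes of up to 300 bases had a median of -6.12, the 25 above 300 and up to 450 bases -4.64, the 8 above 450 and up to 600 bases -2.97 and the 14 longer ones -3.59. The 60S and stalk genes of the same classes had -6.30, -4.92, -3.85 and -2.86. Other nuclear protein-coding genes had -2.06, -1.41, -1.65 and -0.95, so that 40S genes were lower in every class. Within the classes, the 40S genes with an intron had -6.12, -4.64, -2.90 and -3.70, and those without had -5.83, -4.89, -5.95 (1 gene, RPS31) and -3.47, with no constant order. Coding length and the lysate level per kb both moved with the fold change, and their parts in it were not tested. Over all lengths, 78 of the 81 60S and stalk genes were called lower with a median of -4.27, while the 5636 other nuclear genes were divided between 2487 lower and 2554 higher with a median of 0.03.

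Genes that act on the 40S genes or on their products were counted in the same fit. Of 7 regulators of ribosomal protein gene transcription, 6 rose and 1 fell (edgeR, adjusted p under 0.05), beside 44.2% of all reading frames higher and 44.8% lower, with a median of 2.48 and a median coding length of 2475 bases. SCH9, the kinase that couples nutrients to ribosome synthesis, averaged 744 ± 14.2 CPM in eluates, against 95.4 ± 21.5 CPM in lysates (SD, n = 2 each, log2 fold change 2.97). IFH1, the coactivator at ribosomal protein promoters, averaged 885 ± 7.31 CPM in eluates, against 126 ± 8.22 CPM in lysates (2.81) and overlaps a reading frame on its own strand. Its competitor CRF1, a corepressor, averaged 20.8 ± 0.152 CPM in eluates, against 9.61 ± 0.472 CPM in lysates (1.11). HMO1, a high-mobility-group protein of the same promoters and the shortest gene of the list, fell, with 73.7 ± 4.81 CPM in eluates, against 133 ± 16.9 CPM in lysates (-0.85). Of 14 chaperones and late assembly factors of the 40S subunit, 9 fell (64.3%) and 5 rose, beside the same shares of 44.8% lower and 44.2% higher. The count of higher genes was near that background and the count of lower genes above it, and neither was tested against it. The list had a median of -0.74 and a median coding length of 1252.5 bases. TSR2, the chaperone of the RPS26 protein, averaged 16.5 ± 0.193 CPM in eluates, against 74.3 ± 6.09 CPM in lysates (-2.17) and overlaps a reading frame on the opposite strand. DIM1, which dimethylates the 18S ribosomal RNA, averaged 29.2 ± 0.678 CPM in eluates, against 112 ± 8.72 CPM in lysates (-1.94). ENP1 and HRR25, an assembly factor of the pre-40S head and the kinase that acts on it, rose, with 206 ± 2.28 CPM in eluates, against 39.4 ± 5.88 CPM in lysates for ENP1 (2.39) and 390.4 ± 12.6 CPM in eluates, against 104 ± 6.17 CPM in lysates for HRR25 (1.91). Every one of the 57 small-subunit genes lay below the median of nuclear protein-coding genes, but they span only 171 to 960 bases. Across both lists, genes that rose had at least 1380 bases (NOB1), and those that fell had 594 (FAP7) to 1455 (RIO1). The part of length in these directions was not tested.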

How the data were processed

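RNA of eluates and lysates (2 libraries each) was depleted of ribosomal RNA, made into strand-marking libraries and sequenced paired-end in 1 run. The deposited values are raw counts per open reading frame, which the authors made with STAR 2.7.9a and featureCounts (Subread 2.0.3) on sacCer3, per the submitters' processing notes. The strand setting and the handling of reads with several matches, not given in the sources used here, could change the counts. A second deposited table, which was not used, holds the authors' own DESeq2 comparison.

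Introns, coding lengths and overlaps were read from the exon coordinates of the count table. Names came from the RefSeq gene table, which matched 6008 of 6692 frames. Counts were fitted over the whole table with edgeR 4.0.16 under R 4.3.3 (filterByExpr, TMM factors, quasi-likelihood test), eluate over lysate without a replicate block, since the study gives no design formula, and called at an adjusted p under 0.05. Intervals between copies added the approximate standard errors in quadrature, with the t quantile. This takes the copies as independent, although both are measured in the same libraries, and their covariance was not estimated. Ratios of copies within a library used counts per coding length, with a pseudocount of 0.5. The scripts were tested on simulated data. The total counts limit precision at low counts. Values of every library were given for the 5 lowest and 5 highest fold changes, the 5 highest lysate levels per kb, the 5 most and 3 least divided pairs, RPS22 and the single-copy genes, some of which are not reported here. The genes and lists were chosen with earlier results of these data known. Alternatives were edgeR's RLE factors, library sizes alone, other filters, DESeq2 1.42.0, limma-voom (limma 3.58.1), glmTreat, a replicate block, summed copies and leaving out single libraries.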

Additional observations from a re-analysis of the deposited data

How the results depend on the processing

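All 33 genes examined singly stayed lower and past the threshold in all 363 alternatives run on them, and no alternative called a 40S gene higher. Over all results, 561 of 576 alternatives gave the same reading as the main fit. Of the others, 10 moved in size, 3 newly passed the threshold, 1 fell short of it and 1 reversed in sign. The decrease was larger with library sizes alone, where the median of all reading frames was -0.19: the median was -4.74 for the 57 genes, -4.68 with an intron and -4.79 without. The difference between the intron medians was 0.24 without genes whose exons overlap another frame and 0.30 as a difference of means, and ran from 0.018 to 0.30 when single libraries were left out, where the intron-free median ran from -4.82 to -4.50. With the copies summed, all 33 resulting genes were called lower. The share of counts in intron-containing genes, which fell by 4.13 points in the eluates over all counts, was 1.27 points higher with the 57 genes' counts as denominator, a different quantity. The number of divided pairs ran from 15 to 20 without single libraries. For RPS21, raw count ratios did not overlap (0.24). The labels do not say whether same-numbered libraries share a culture. Their deviations had a correlation of -0.04 over 6191 genes, which leaves a pairing neither shown nor excluded. With the replicate block, edgeR called 57 genes lower (median -4.57) and 18 pairs divided. Depth limits most the least abundant genes, with 74 counts at the lowest, and division of counts between copies remains uncertain.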

Other observations

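Replicates of 1 group also differed in the level of the 57 genes. In the eluates, 38 of 57 genes were higher in replicate 2 than in replicate 1 (66.7%, beside 48.5% of all 6191 reading frames tested), with a median size of the difference of 0.13 on the log2 scale (0.11 over all reading frames). In the lysates, 11 of 57 were higher in replicate 2 (19.3%, beside 39.6%), with a median size of 0.16 (0.13). Whether the 57 genes differ from the rest in this was not tested. Of these 11 genes, RPS15 had the widest gap (0.95), and others were RPS0B, RPS29B, RPS7B, RPS16B, RPS4B, RPS26A and RPS27A. The cause was not tested.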
